A study of Homo sapiens with 6 samples.

Results

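Oxidative phosphorylation is carried out by 5 protein complexes of the inner mitochondrial membrane, and most of their subunits are encoded in the nucleus. These nuclear-encoded subunits were taken from the FPKM table (read numbers scaled by exon length and by sequencing depth) as protein-coding genes named NDUFA, NDUFB, NDUFC, NDUFS or NDUFV with a number, SDHA to SDHD, UQCR, CYC1, COX4 to COX8 and ATP5. The names gave 90 of the 58051 genes in the table, with 39 in complex I, 4 in complex II, 10 in complex III, 17 in complex IV and 20 in complex V. Of these, 2 were readthrough genes, which join a subunit to a neighbouring gene. NDUFA4 and NDUFA4L2 were counted in complex I by name, although NDUFA4 is known as a subunit of complex IV. NDUFAB1, known as a subunit of complex I, did not match these names and was read in a related list.

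The RNA came from cells labelled NT2 (NTera-2), an established embryonal carcinoma line of testicular origin. Titles and treatment labels gave 3 libraries of cells with mimics of piR-36249, a small RNA of the piRNA class, and 3 with a scramble control, while the genotype label and the series' design description name a knockdown. Libraries were grouped by title, and all differences are mimic minus scramble. No label gives the time after treatment, and none says that each library had its own culture; the p-values therefore reflect the variation among these 6 samples only, and it may be technical.

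Libraries held 48.0 to 62.7 M reads, recovered from the FPKM values. Of 10 embryonal carcinoma and pluripotency markers, 5 (NANOG, SOX2, SALL4, TDGF1 and L1TD1) were listed at 0 in all 6 libraries, and 2 (DNMT3B and LIN28B) were above 1 FPKM in all. Of 10 endothelial markers, 8 were above 1 FPKM in all libraries, among them PECAM1 and CDH5. SDHAF3, an assembly factor of complex II, was also listed at 0 in all libraries, and whether a listed 0 means a silent gene was not tested. The summed level of the endothelial markers was 569 to 622 FPKM with mimic and 460 to 494 with scramble, and that of the embryonal carcinoma markers was 18.6 to 21.0 against 13.3 to 14.97. None of 6 fibroblast and 4 blood markers was above 1 FPKM in all libraries. The fibroblast markers summed to 1.12 to 1.35 FPKM with mimic and 0.573 to 0.706 with scramble, and CD3E was at 0. The part of these markers in the results was not tested.

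In the respiratory chain, complex I (NADH dehydrogenase) and complex II (succinate dehydrogenase) pass electrons to ubiquinone, complex III (the cytochrome bc1 complex) passes them to cytochrome c, and complex IV (cytochrome c oxidase) passes them to oxygen. Complexes I, III and IV pump protons out of the matrix, and complex V (ATP synthase) lets them return and makes ATP. Complexes I, III, IV and V also hold subunits encoded in mitochondrial DNA, so each is built from the products of both genomes.

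Most nuclear subunits lay close to their scramble level with mimic, and 7 fell. The fall was largest for COX7C of complex IV, to 30.3% of scramble, followed by ATP5F1B of complex V, to 57.3%, and SDHA of complex II, to 75.1%. COX7B, COX8A, NDUFB9 and ATP5MC1 fell by smaller amounts, to between 83.8% and 86.0%. No subunit rose. The test was limma on log2(FPKM + 1) with Benjamini-Hochberg adjustment at 0.05 over the 12912 genes whose mean reached 0.5 FPKM, and 80 of the 90 subunits passed that filter.

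The 7 that fell were 8.75% of the 80 tested, while 16.8% of all tested genes were lower. The 0 higher calls stood against 18.7% of all tested genes, and 35.5% of all tested genes changed in either direction. At an unadjusted p under 0.05, limma had 14 subunits lower (22.1% of all tested genes) and 1 higher (23.8%). Voom on the recovered reads called 13 lower (18.2% of all genes in that fit) and 1 higher (21.0%) after adjustment. In these bulk samples, fewer cells of a type and less RNA per cell cannot be told apart.

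Among the 80, 60 had a log2 fold change below 0 (49.5% of all tested genes) and 20 above 0 (50.5% of all tested genes). Without scramble replicate 3 the counts were 42 and 38. The median of the 80 with all libraries was -0.07, beside 0.0025 over all tested genes. The 95% interval of the change lay within 0.5 of 0 on the log2 scale for 76 of the 80, and within 0.25 for 33. The mimic and scramble values did not overlap for 17 subunits, with 16 lower (23.2% of all tested genes) and 1, NDUFA5, higher (26.0% of all tested genes). The plot of changes by complex shows all 80 with their intervals.

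**Figure D1:**
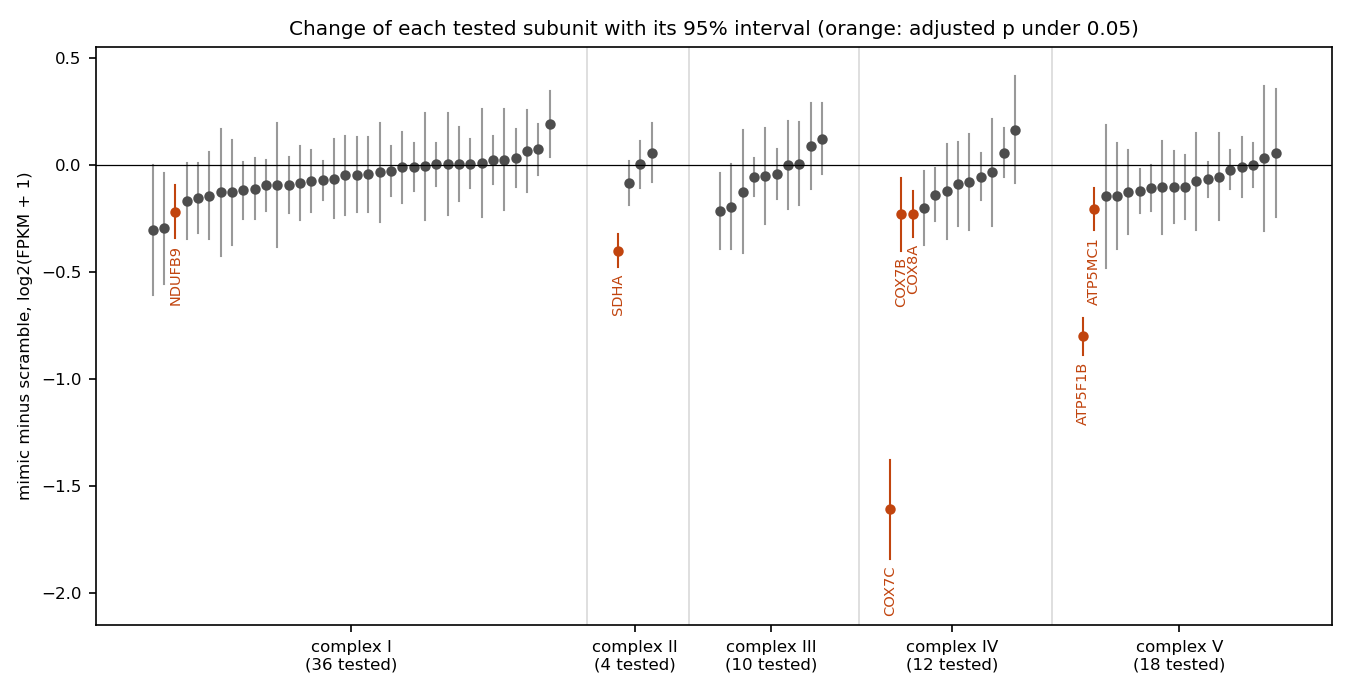
Log2 fold change of each tested subunit (mimic minus scramble, on log2(FPKM + 1), points) with its 95% interval (bars), ordered within complexes I to V. The 7 subunits with an adjusted p under 0.05 are in orange, and COX7C at -1.61 and ATP5F1B at -0.80 lie apart from the other 78.

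The summed FPKM of all 90 subunits was 2749, 2501 and 2602 in mimic replicates 1 to 3 and 2903, 2879 and 3270 in scramble replicates 1 to 3. All mimic sums were below all scramble sums. Without ATP5F1B, the most abundant subunit, the sums were 2448, 2202 and 2305 with mimic and 2386, 2364 and 2734 with scramble, and the groups overlapped. The sum of complex V was 652 ± 19.1 FPKM with mimic and 895 ± 39.6 with scramble (SD, n = 3). Without ATP5F1B it was 353 ± 17.9 and 372 ± 27.9 (SD, n = 3).

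The replicates of a group were not equally high. Scramble replicate 3 was the highest of the 6 libraries for 63 of the 80 tested subunits (78.8%), and for 19.8% of all tested genes. Mimic replicate 1 was the highest mimic library for 65 of the 80, and for 36.3% of all tested genes. Subunit transcripts are short: the median length of the longest principal transcript was 1090 bases, against 3150.5 over the 10642 genes with one, and 46.2% of the subunits but 4.77% of those genes were at most 1000 bases long.

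Over all genes of at most 700 bases, scramble replicate 3 lay 0.12 above its group mean on the log2 scale, and over genes above 4000 bases it lay -0.051 from it. Mimic replicate 1 went from 0.087 to -0.020 over the same classes. The subunits in scramble replicate 3 went from 0.15 in the shortest class to 0.044 in the longest. Without scramble replicate 3, 6 subunits were lower (14.9% of all tested genes) and 2, NDUFA12 and UQCR11, higher (16.0% of all tested genes). The median change was then -0.0026, with 42 below 0 and 38 above, and COX7B was no longer called. The part of transcript length in the results was not tested.

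**Figure D2:**
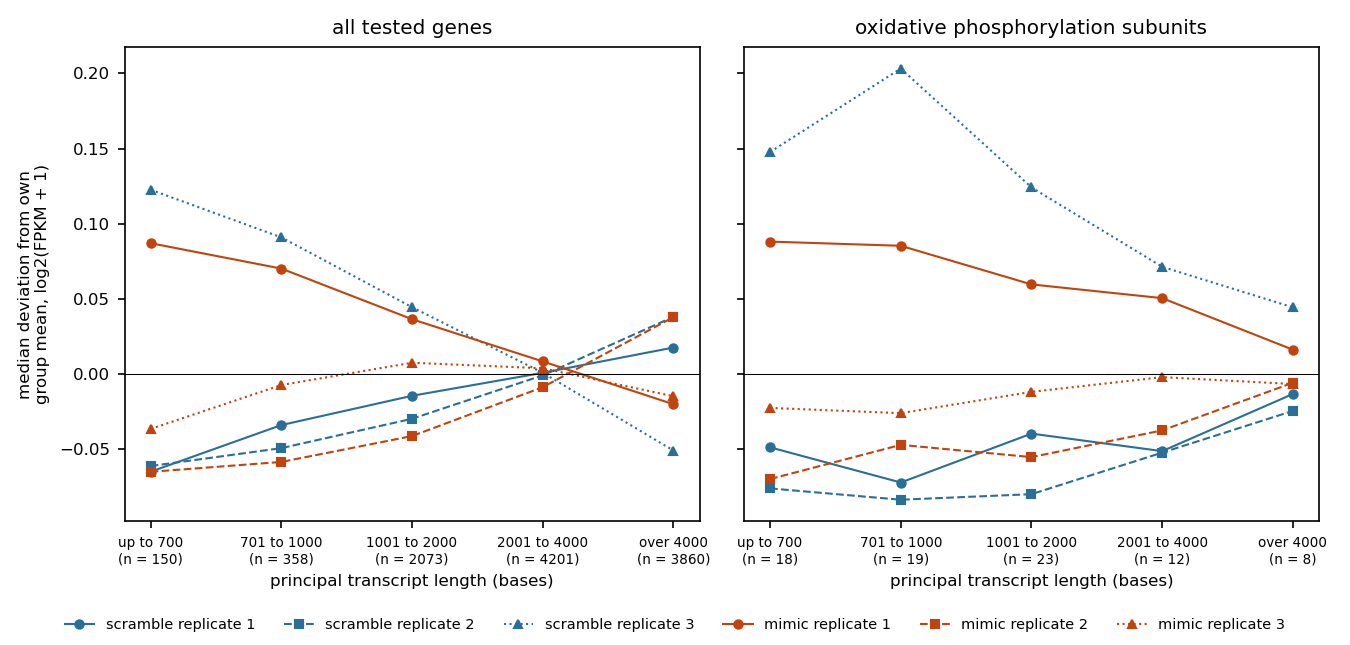
Median deviation of each library from its own group mean on the log2(FPKM + 1) scale, by length class of the longest principal transcript, for all tested genes (left) and for the subunits (right). Scramble replicate 3 and mimic replicate 1 lie above their group means for short transcripts, and the subunits of scramble replicate 3 reach 0.20 in the class up to 1000 bases.

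Complex IV held the largest single fall, and 3 of its 12 tested subunits fell (25%, beside 16.8% of all tested genes). Its median change was -0.11, and without scramble replicate 3 it was -0.054, with 2 lower (14.9% of all tested genes). COX7C, a small accessory subunit that spans the membrane once, is encoded on chromosome 5 at 86617904 to 86620962 on the plus strand (GRCh38, GENCODE 29). Of its principal transcripts the longest has 1584 bases, the length used for the classes above, and COX7C-201 has 666 bases in 3 exons. The coding part of COX7C-201 runs from 86618056 to 86619469. It is printed here because its RNA fell most among the tested subunits, with the start and stop codons in capitals, and it encodes 63 residues.

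COX7C coding sequence: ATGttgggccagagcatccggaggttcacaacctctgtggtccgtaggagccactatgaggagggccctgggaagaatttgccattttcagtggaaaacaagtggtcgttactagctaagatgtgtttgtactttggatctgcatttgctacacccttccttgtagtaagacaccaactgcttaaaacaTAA

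COX7C was at 9.78, 8.87 and 8.72 FPKM in mimic replicates 1 to 3 and at 26.7, 28.1 and 35.5 FPKM in scramble replicates 1 to 3. Every mimic library was below every scramble library, and the scramble spread was set mainly by the high replicate 3. These values rest on 834 to 1143 recovered reads per mimic library and 2959 to 3781 per scramble library. The log2 fold change was -1.61 (SE 0.10, 95% interval -1.84 to -1.38), with an adjusted p of 3.7e-05 by limma. On the log2(FPKM + 1) scale, which understates the change of low genes, COX7C had the largest fall of all 12912 tested genes. Its change was between -1.71 and -1.49 under 16 alternative settings.

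COX7C was the only subunit among the 401 genes of the authors' deposited table, which holds no absolute log2 fold change under 1. There its log2 fold change was -1.73 with a standard error of 0.098 and an adjusted p of 5.0e-67 in the authors' deposited table. Its union of exons is 1993 bases long, of which 79 (3.96%) are shared with AC108110.1, a small RNA gene on the same strand. Its 4 pseudogenes were each at 0.295 FPKM or below in every library.

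Within complex IV, COX7C made up 1.98%, 2.01% and 1.86% of the summed FPKM in mimic replicates 1 to 3. In scramble replicates 1 to 3 it made up 5.33%, 5.47% and 6.04%. The shares of the groups did not overlap, and COX7C ranked 11th among the subunits in each mimic library and 7th or 8th in the scramble libraries. These ranks are on the FPKM scale, which is per base of the union of exons.

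The other complex IV subunits summed to 485, 432 and 460 FPKM with mimic and 475, 486 and 551 with scramble. The groups overlapped, and the mimic mean was 91.1% of scramble. The log2 ratio of COX7C to this sum was -5.65 ± 0.061 with mimic and -4.07 ± 0.10 with scramble (SD, n = 3), a difference of -1.58. Leaving out each library in turn gave differences from -1.62 to -1.52. Scaling between libraries cancels in this ratio, which was not tested.

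**Figure D3:**
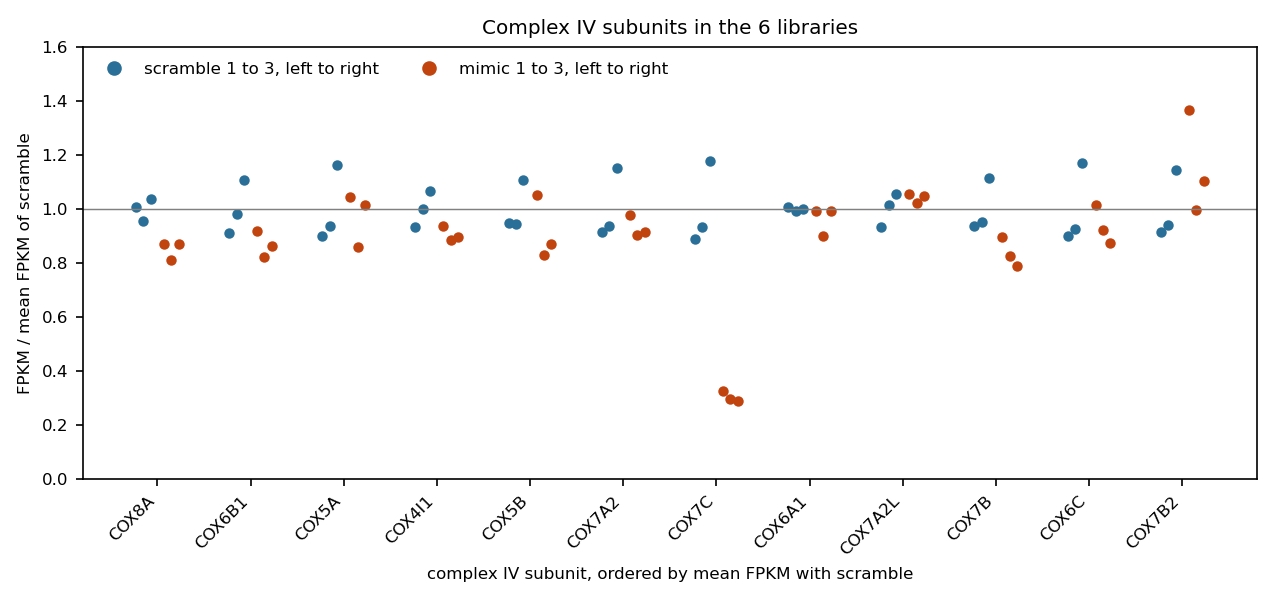
FPKM of the 12 tested complex IV subunits in each library, divided by the subunit's scramble mean and ordered by that mean. The mimic mean of COX7C is 0.303 of its scramble mean, while the mimic means of the other 11 lie between 0.838 for COX7B and 1.16 for COX7B2.

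COX8A and COX7B, which are also small accessory subunits, fell less. COX8A (chromosome 11, 63974607 to 63976543, plus strand) was at 89.6, 83.6 and 89.6 FPKM with mimic and 104, 98.4 and 107 with scramble. All mimic values were below all scramble values, and the log2 fold change was -0.23 (SE 0.047, limma adjusted p 0.0071). Of its exon bases, 34.5% are shared with AP000721.1.

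COX7B (chromosome X, 77899438 to 77907373, plus strand) was at 10.7, 9.86 and 9.43 FPKM with mimic and 11.2, 11.3 and 13.3 with scramble. The groups were separated by a narrow gap between mimic replicate 1 and scramble replicate 1. Its log2 fold change was -0.23 (SE 0.073, limma adjusted p 0.041), and 7 of 16 alternatives ended the call, with adjusted p up to 0.13.

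The other 9 tested subunits of complex IV did not pass the test. COX4I1 and COX5A, which bind next to the mitochondrially encoded core, had log2 fold changes of -0.14 (limma adjusted p 0.078) and -0.036 (0.82). COX6B1, on the side facing the intermembrane space, had -0.20 (0.071), and COX5B, which binds zinc, had -0.12 (0.35). COX6A1, COX6C and COX7A2 had -0.056, -0.080 and -0.091.

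COX7A2L, known as a factor that joins complexes III and IV into supercomplexes, had 0.056. COX7B2, a paralogue of COX7B, had the most positive value of the complex at 0.16 (95% interval -0.085 to 0.41), and its values of 3.85 to 5.28 FPKM with mimic and 3.54 to 4.42 with scramble overlapped. NDUFA4, counted with complex I by name, had -0.064 (95% interval -0.25 to 0.12).

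In complex V, 2 of 18 tested subunits fell (11.1%, beside 16.8% of all tested genes). The median change was -0.10, and without scramble replicate 3 it was -0.033, with 12 below 0 and 6 above. ATP5F1B, the catalytic beta subunit in the head of ATP synthase, is on chromosome 12 at 56638175 to 56646068 on the minus strand. It was at 301, 299 and 297 FPKM with mimic and 517, 515 and 536 with scramble. The replicates were nearly level within each group, and the groups lay far apart. The log2 fold change was -0.80 (SE 0.038, 95% interval -0.89 to -0.71, limma adjusted p 1.6e-05), the 85th largest fall of the tested genes on the log2(FPKM + 1) scale. ATP5F1B shares no exon base with another gene, and its pseudogene was at 0.

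ATP5F1A, the alpha subunit that alternates with beta in the same ring, was at 36.8, 35.5 and 36.3 FPKM with mimic and 38.5, 37.2 and 38.2 with scramble. The groups did not overlap, but the change of -0.069 (95% interval -0.15 to 0.014, limma adjusted p 0.17) did not pass the test. ATP5F1C, the gamma subunit of the rotor shaft, had -0.00088 (-0.10 to 0.10), and ATP5F1D, the delta subunit, had 0.056 (-0.24 to 0.36). The interval of ATP5F1B did not reach those of these partners, although no test compared the genes with each other.

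Of the 3 genes for the membrane ring of c subunits, whose mature proteins are the same, ATP5MC1 fell. ATP5MC1 (chromosome 17, 48892765 to 48895871, plus strand) was at 20.9, 19.7 and 21.2 FPKM with mimic and 23.3, 23.9 and 24.6 with scramble. The groups did not overlap, and the log2 fold change was -0.21 (SE 0.042, limma adjusted p 0.0073). ATP5MC2 had -0.11 (limma adjusted p 0.10) and ATP5MC3 had -0.023 (0.69). ATP5IF1, the inhibitor of ATP hydrolysis by the complex, had -0.15 (0.33).

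In complex II, SDHA, the flavoprotein that oxidises succinate, fell, and its partners did not pass the test. SDHA (chromosome 5, 218241 to 256700, plus strand) was at 29.8, 29.7 and 29.8 FPKM with mimic and 40.3, 39.2 and 39.2 with scramble. The groups were far apart relative to their spread, with a log2 fold change of -0.40 (SE 0.034, 95% interval -0.48 to -0.32, limma adjusted p 0.00014). Pseudogene copies that could share reads were lower in level: SDHAP1 was at 5.14 to 5.37 FPKM with mimic and 5.33 to 5.58 with scramble, and SDHAP4 at 2.80 to 3.52 and 3.69 to 4.001.

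SDHB, the iron-sulphur subunit, was at 53.6, 48.9 and 50.2 FPKM with mimic and 53.6, 53.2 and 55.3 with scramble, a change of -0.085 (95% interval -0.19 to 0.017). The membrane anchors SDHC and SDHD had 0.0019 (-0.11 to 0.11) and 0.057 (-0.080 to 0.19). The values of all 3 partners overlapped between groups.

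**Figure D4:**
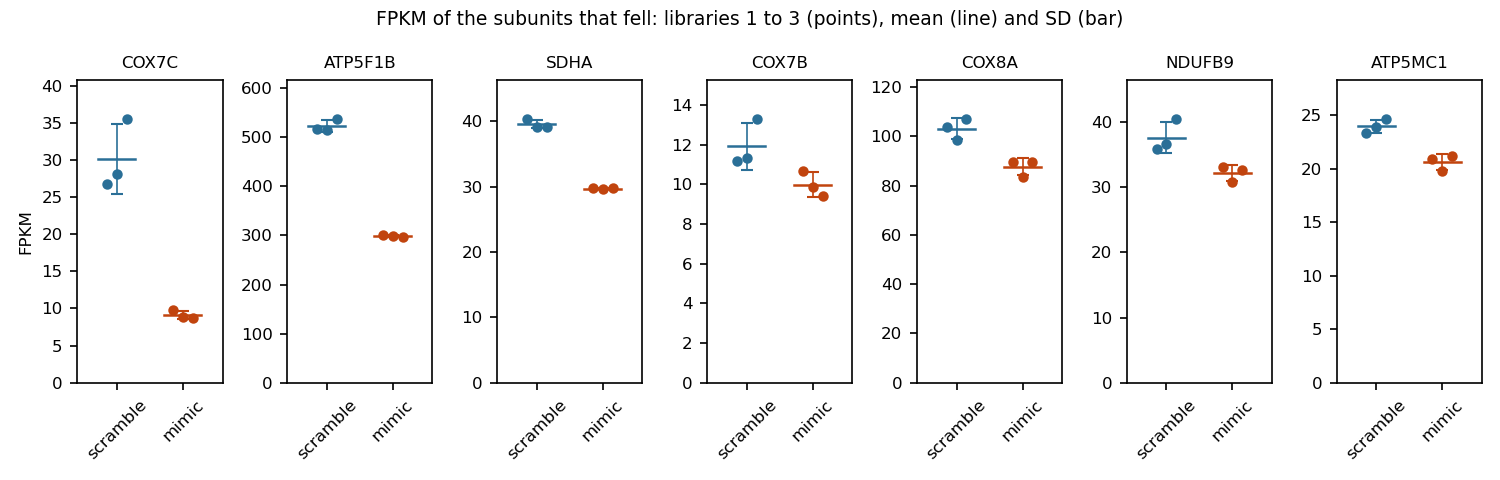
FPKM of the 7 subunits that fell, with the 3 libraries of each group as points, the mean as a line and the SD as a bar, on axes that start at 0. The mimic points lie below the scramble points in every panel, with the widest relative gap for COX7C and a narrow one for COX7B.

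In complex I, 1 of 36 tested subunits fell (2.78%, beside 16.8% of all tested genes). The median change was -0.047, and without scramble replicate 3 it was 0.0010, with 18 below 0 and 18 above. In that fit 1 of the 36, NDUFA12, was called higher (16.0% of all tested genes). NDUFB9, an accessory subunit of the membrane arm encoded on chromosome 8, was at 33.1, 30.8 and 32.6 FPKM with mimic and 35.8, 36.6 and 40.4 with scramble. The groups did not overlap, and the log2 fold change was -0.22 (SE 0.054, limma adjusted p 0.016). Its exons share 21.0% of their bases with MTSS1 and TATDN1 on the other strand, and the use of strand in counting is not given in the sources used here. With no filter on low values its adjusted p was 0.058.

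NDUFS6, an accessory subunit near the NADH-oxidising module, had the most negative change of complex I at -0.30 and did not pass the test (95% interval -0.61 to -0.0014, limma adjusted p 0.11). It was at 41.9, 30.8 and 35.6 FPKM with mimic and 42.1, 39.6 and 52.8 with scramble, so the groups overlapped. NDUFA12, an accessory subunit, had the most positive change at 0.19 (0.036 to 0.35, limma adjusted p 0.058). It was at 24.4, 22.4 and 23.3 FPKM with mimic and 20.0, 18.8 and 22.4 with scramble, and 6 alternatives called it higher.

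NDUFS5, which had the highest mean FPKM of complex I over all 6 libraries, was at 168 ± 11.3 FPKM with mimic and 161 ± 18.05 with scramble (SD, n = 3), a change of 0.063 (95% interval -0.13 to 0.25). The core subunits NDUFV1 and NDUFS1, which carry flavin or iron-sulphur clusters, had changes of 0.031 and 0.023. Both were chosen after their values were seen.

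In complex III none of the 10 tested subunits passed the test, beside 35.5% of all tested genes. The median change was -0.048, and without scramble replicate 3 it was 0.031, with 7 of 10 above 0. In that fit 1 of the 10, UQCR11, was called higher (16.0% of all tested genes). CYC1, the cytochrome c1 haem protein and the most abundant of them, was at 114, 103 and 115 FPKM with mimic and 126, 117 and 143 with scramble. The groups did not overlap, but the change of -0.22 had a limma adjusted p of 0.061, and 6 alternatives called it lower. UQCR11 had the most positive change at 0.12 (95% interval -0.045 to 0.29). The Rieske iron-sulphur protein UQCRFS1 had 0.0049 (-0.19 to 0.20).

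The 10 subunits under the filter were mostly paralogues of other subunits. COX6A2 and COX8C, paralogues of COX6A1 and COX8A, were listed at 0 in every library, and COX7A1, the heart and muscle form of COX7A, had a mean of 0.188 FPKM. COX4I2, COX6B2, ATP5MGL and both readthrough genes were also under it. NDUFV2 and NDUFA7, subunits of complex I in all tissues, were under it as well, at 0.161 to 0.306 and 0.0295 to 0.188 FPKM.

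NDUFV2 shares 28.4% of its exon bases with AP005263.1, and NDUFA7 shares 33.5% with neighbouring genes. The pseudogene NDUFV2P1 was at 1.24 to 1.92 FPKM with mimic and 1.53 to 2.55 with scramble, above NDUFV2 in every library. Over the 88 subunits other than the readthrough genes, the median level was 25.6 FPKM for the 41 that share no exon base, 16.7 for the 35 that share under 25%, and 2.17 for the 12 that share at least 25%. Below 5 FPKM were 8 of the 41, 6 of the 35 and 8 of the 12. The part of shared exons or of pseudogene copies in the low levels was not tested. Of 173 pseudogenes named after a subunit, 119 were at 0 in every library and 10 had a mean of at least 0.5 FPKM.

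Promoters of 70 of the 90 subunits were found in the RefSeq table (GRCh38.p14), each with 250 bases before and 50 after the start. Motifs of factors known for respiratory genes were searched on both strands. The NRF1 motif was in 4 of the 70 (5.71%) and in 1.36% of all 27305 promoters, the YY1 motif in 7 (10%) and 1.28%, and the ETS motif CCGGAAG in 20 (28.6%) and 10.7%. The SP1 motif GGGCGG was in 43 (61.4%) and 44.6%, the CRE motif TGACGTCA in 5 (7.14%) and 1.98%, and TATAAA in 7 (10%) and 12.0%.

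Of the 7 subunits that fell, 5 had a promoter entry, and none of these held the NRF1 or YY1 motif. SP1 was in COX7C and COX8A, ETS in COX8A, CRE in ATP5MC1 and TATAAA in COX7B. The stretches before the first annotated exon of COX7C (chr5:86617691-86617903) and COX8A (chr11:63974370-63974606), both on the plus strand, are printed as the 2 promoters of fallen complex IV subunits that hold the SP1 motif. Capitals mark that motif on the other strand, as CCGCCC, which starts 144 bases before the start of COX8A; the match of COX7C lies outside the printed stretch. A match is a description of letters only.

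COX7C promoter: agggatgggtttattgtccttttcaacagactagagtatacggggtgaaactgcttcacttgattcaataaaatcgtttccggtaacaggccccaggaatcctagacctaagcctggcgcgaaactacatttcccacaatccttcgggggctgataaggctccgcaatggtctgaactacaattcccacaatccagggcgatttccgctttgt
COX8A promoter: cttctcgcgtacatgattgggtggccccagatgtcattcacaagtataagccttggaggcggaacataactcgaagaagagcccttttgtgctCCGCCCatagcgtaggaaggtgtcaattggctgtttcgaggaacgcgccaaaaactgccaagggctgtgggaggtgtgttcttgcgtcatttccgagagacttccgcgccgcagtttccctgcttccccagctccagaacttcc

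Genes that build the complexes were also read. Of 57 assembly factors, 54 were tested, and 13 fell (24.1%, beside 16.8% of all tested genes) and 1 rose (1.85%, beside 18.7%). Their median change was -0.0021. For complex I, 6 of 18 fell (33.3%, beside 16.8% of all tested genes). Among the 6 were NDUFAF4 (-0.27), TIMMDC1 (-0.27), DMAC1 (-0.24) and NUBPL (-0.22), which acts in iron-sulphur cluster insertion. NDUFAF4 lost its call in 3 of 16 alternatives and NUBPL in 4 of 15, among them the fit without mimic replicate 3 and that without scramble replicate 1, with adjusted p up to 0.053 and 0.062. Without scramble replicate 3, 5 of the 18 were lower (14.9% of all tested genes) and 2 higher (16.0% of all tested genes). For complex III, 2 of 6 fell (33.3%, beside 16.8% of all tested genes): UQCC3 (-0.37) and BCS1L (-0.34), which inserts the Rieske protein.

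For complex IV, 5 of 22 tested assembly factors fell (22.7%, beside 16.8% of all tested genes). COA4 had -0.40, COX17, a copper chaperone, -0.38, COX10, which makes haem A precursors, -0.29, and SCO1, which delivers copper, -0.20. The call of COX17 was lost in 6 alternatives, with adjusted p up to 0.14, and that of SCO1 in 4, with adjusted p up to 0.069. Without scramble replicate 3 the list had 3 lower (14.9% of all tested genes) and 1 higher (16.0% of all tested genes). None of 3 tested complex II factors changed, beside 35.5% of all tested genes. Of 5 complex V factors 1 rose (20%, beside 18.7% of all tested genes): TMEM70 (0.19), which acts on the c ring. Its call was lost without mimic replicate 3 and without scramble replicate 1, with adjusted p up to 0.060.

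The list of electron and adenine nucleotide carriers also held HCCS, SLC25A3 and NDUFAB1. Of its 9 tested genes, 4 fell (44.4%, beside 16.8% of all tested genes). Without scramble replicate 3, 3 of them were lower (14.9% of all tested genes). SLC25A5, a carrier that exchanges ADP for ATP across the inner membrane, was at 125, 116 and 126 FPKM with mimic and 317, 307 and 331 with scramble. The groups lay far apart, with a log2 fold change of -1.37. HCCS, which attaches haem to cytochrome c, had -0.49, SLC25A3, the phosphate carrier, -0.30, and SLC25A6 -0.17, a call lost in 9 of 16 alternatives. Cytochrome c itself, CYCS, had -0.14 and did not pass the test (limma adjusted p 0.13).

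Among 13 tested regulators of respiratory genes, 3 fell (23.1%, beside 16.8% of all tested genes) and 1 rose (7.69%, beside 18.7%). NRF1 had -0.29, PPRC1, a coactivator, -0.29 and MTERF3, a repressor of mitochondrial transcription, -0.24, and YY1 rose by 0.20. In the tricarboxylic acid cycle and the pyruvate dehydrogenase that feeds it, 2 of 18 tested genes fell (11.1%, beside 16.8% of all tested genes). They were citrate synthase CS (-0.21) and PDHA1 (-0.27). SUCLA2 was the 1 that rose (5.56%, beside 18.7%), by 0.21. Of the 13 mitochondrially encoded subunits 6 fell (46.2%, beside 16.8% of all tested genes), with a median of -0.21, and MT-ATP8 (-0.82), which overlaps MT-ATP6 (-0.33), had the largest fall. MT-ATP8 was at 395, 405 and 361 FPKM with mimic and at an uneven 492, 832 and 784 with scramble (95% interval -1.24 to -0.41). MT-CYB and MT-ND6 each had -0.28. With no filter on low values, all 4 of these named mitochondrial genes lost their calls, with adjusted p from 0.062 to 0.24.

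**Figure D5:**
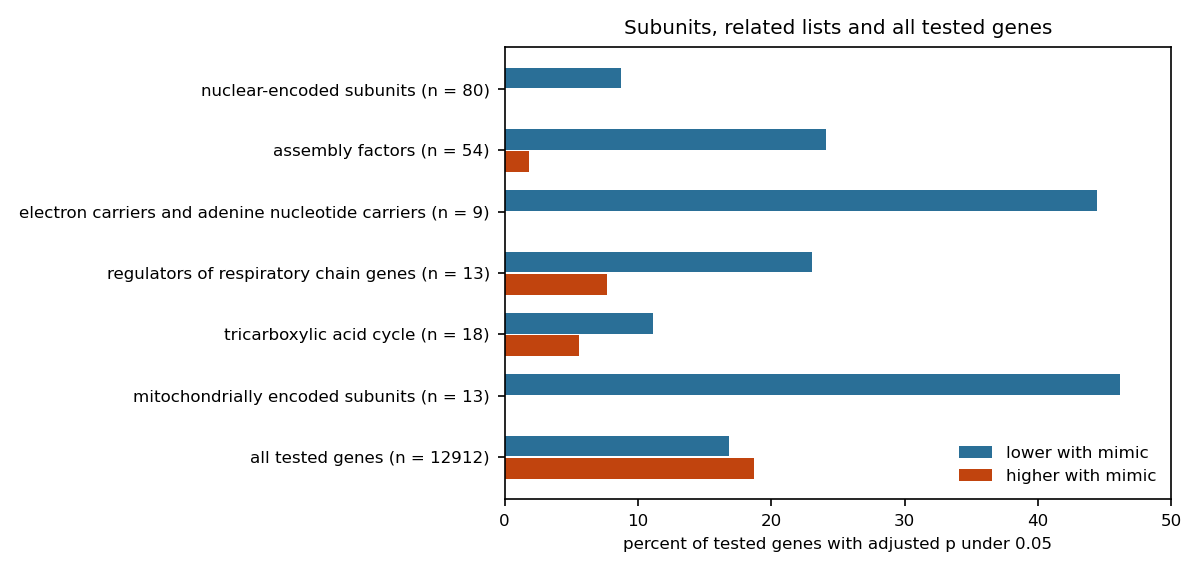
Percent of tested genes that fell or rose (limma adjusted p under 0.05) among the nuclear-encoded subunits, the related gene lists and all 12912 tested genes. The subunits show 8.75% lower and none higher, beside 16.8% lower and 18.7% higher over all tested genes.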

How the data were processed

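RNA-seq of 3 mimic and 3 scramble libraries was used. The submitters' processing notes list DESeq2 1.26.0, featureCounts 2.0.1, HISAT2 2.1.0 and Trimmomatic 0.39, and the build GRCh38. How FPKM was computed, and with which gene annotation and counting options, is not given in the sources used here. FPKM values for 58051 genes were deposited by the authors, and 0 columns belonged to no sample. Their second deposited table, per the file headers, holds a mean of normalized counts (a signal), a log2 fold change, a test statistic (a score) and p-values.

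Gene models were from GENCODE 29, which matched 57447 identifiers. Depth was recovered as whole reads from FPKM and exon length (tolerance 0.02), and 10 reads on 1 kb are worth 0.159 to 0.208 FPKM. Differences were tested on log2(FPKM + 1) in limma 3.58.1 under R 4.3.3, with a trend in the prior variance. That scale understates the change of low genes. It used all 6 libraries and the group only, genes whose mean reached 0.5 FPKM, and Benjamini-Hochberg adjustment. It was tested on simulated data. Alternatives covered the pseudocount (0.1 and 0.5), the filter (none and 5 FPKM), scaling (TPM, median ratio, quantile), the variance model, voom on recovered reads, the replicate block and each library left out.

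Named were all members that passed, all tested members of complexes II and IV, in the other complexes the most positive, most negative and most abundant member, and up to 4 called genes of each related list. Any other gene was picked with its values in view. The members and lists were chosen with earlier results of these data known.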

Additional observations from a re-analysis of the deposited data

How the results depend on the processing

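COX7C, ATP5F1B, SDHA, COX8A and ATP5MC1 were called lower under all 16 alternatives. COX7B lost its call in 7 of them and NDUFB9 with no filter. The number of subunits called lower, 7 in the test as reported, was 11 with a filter at 5 FPKM, 13 with voom on recovered reads, and 6 to 11 with each library left out, the 11 without scramble replicate 1. The number called higher, 0 as reported, was 1 with the filter at 5 FPKM, the TPM scale, quantile normalization and voom, and 0 to 2 with each library left out. Quantile normalization called 11 subunits in either direction. Over all genes, 4584 of 12912 were called in either direction as reported, and 3290 of 6757 with the filter at 5 FPKM. The TPM scale called 4398 of 12912, and voom had 18.2% lower and 21.0% higher. Without scramble replicate 3 the shares were 14.9% and 16.0%. The other shares are not given here, so those counts stand without a background. The median change of the subunits ranged from -0.11 to -0.0026 with each library left out. The sign turned for SDHC under median-ratio scaling (-0.0059) and quantile normalization (-0.014). With each library left out, SDHC ranged from -0.016 to 0.026, ATP5F1D from -0.062 to 0.16, COX5A from -0.10 to 0.076, COX6C from -0.14 to 0.031 and COX7A2 from -0.15 to 0.011. The cause was not tested. Over all genes, scaling moved the median change to 0.024 at most.

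Replicate numbers are shared by both groups. The correlations of same-numbered deviations were -0.062, 0.24 and 0.054, so the numbers were not taken to pair the libraries. With the replicate number as a block, 4609 genes were called in place of 4584, and 7 subunits were lower and 1 higher. COX7B lost its call under the block and CYC1 and NDUFA12 gained one.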
